A study of Homo sapiens with 8 samples.

Results

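NFKBIA and 9 other genes of NF-kB signalling and interleukin-1 reception were followed in Ishikawa, an endometrial adenocarcinoma line of human origin, under a glucocorticoid, an estrogen or both. The 10 genes are rows of a count table of 26364 genes and were taken by symbol. They are the NF-kB inhibitors NFKBIA and NFKBIE, the ubiquitin-editing brake TNFAIP3, the subunits NFKB1, NFKB2, RELA and RELB, the ubiquitin ligase BIRC3, and the interleukin-1 receptors IL1R1 and IL1R2. IL1R2 was chosen by its measured pattern over the groups, so its values are a description with no test, and counts of changed genes are over the 9 others. All 10 genes passed the expression filter that left 14201 genes for testing.

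The RNA came from cells kept in medium without phenol red and with serum stripped of steroids. The groups were vehicle (DMSO), dexamethasone at 100 nM (Dex), estradiol at 10 nM (E2), and dexamethasone at 100 nM with estradiol at 10 nM (Dex_E2), with 2 libraries each and 8 in all. The sample labels give 8 hr of treatment for every group, whereas the protocol shared by the samples gives 1 hr, and the sources used here do not settle which applies. No inflammatory stimulus is named for any group. All libraries are of the same cell line, and no label says that they were grown as separate cultures. The p-values therefore rest on a spread between libraries that may be technical.

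NF-kB is a family of dimeric transcription factors assembled from RELA, RELB, REL and the processed products of NFKB1 and NFKB2. In resting cells IkB proteins, of which NFKBIA encodes IkB-alpha, hold the dimers in the cytoplasm. Signals from interleukin-1 or TNF receptors activate the IkB kinases, IkB-alpha is destroyed and the dimers are released. The dimers switch on inflammatory genes together with BIRC3 and their own brakes NFKBIA and TNFAIP3. IL1R1 carries the interleukin-1 signal with its partner IL1RAP, whereas IL1R2 binds interleukin-1 without signalling and acts as a decoy. Glucocorticoids are widely used to restrain this pathway, and the endometrium passes through cycles of hormone exposure and inflammation.

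The sequence just before the start sites shows which of the genes carry the recognition motif of NF-kB itself there. RefSeq promoter entries (GRCh38.p14, another build than the hg19 the counts were made on) were matched for 8 of the 10 genes, with 16 start sites, and NFKBIE and RELB had no entry. The 250 bases upstream of a start are shown 5′ to 3′ on the strand of the gene, with matches to the kB consensus, searched on both strands, in capitals. They are given for NFKBIA, TNFAIP3 and BIRC3, whose windows hold a match, and for both starts of IL1R2, which hold none. NFKBIA lies at chr14:35404750-35404999 (minus strand), TNFAIP3 at chr6:137867009-137867258 (plus strand), BIRC3 at chr11:102317234-102317483 (plus strand), and the IL1R2 windows at chr2:101991710-101991959 and chr2:101998711-101998960 (plus strand).
NFKBIA: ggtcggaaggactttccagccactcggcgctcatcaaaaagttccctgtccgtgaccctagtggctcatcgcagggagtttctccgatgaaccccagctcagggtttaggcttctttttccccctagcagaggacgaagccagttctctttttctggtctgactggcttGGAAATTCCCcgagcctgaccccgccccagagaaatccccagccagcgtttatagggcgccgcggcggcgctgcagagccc
TNFAIP3: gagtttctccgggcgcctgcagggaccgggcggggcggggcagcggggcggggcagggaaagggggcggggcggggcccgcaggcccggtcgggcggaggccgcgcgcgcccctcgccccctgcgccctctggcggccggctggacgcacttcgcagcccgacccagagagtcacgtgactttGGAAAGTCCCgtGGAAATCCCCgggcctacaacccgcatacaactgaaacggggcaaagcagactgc
BIRC3: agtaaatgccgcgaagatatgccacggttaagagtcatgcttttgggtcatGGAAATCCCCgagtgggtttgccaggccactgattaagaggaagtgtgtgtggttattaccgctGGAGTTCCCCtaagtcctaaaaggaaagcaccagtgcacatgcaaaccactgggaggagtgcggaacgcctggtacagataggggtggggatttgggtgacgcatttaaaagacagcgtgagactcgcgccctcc
IL1R2 start 1: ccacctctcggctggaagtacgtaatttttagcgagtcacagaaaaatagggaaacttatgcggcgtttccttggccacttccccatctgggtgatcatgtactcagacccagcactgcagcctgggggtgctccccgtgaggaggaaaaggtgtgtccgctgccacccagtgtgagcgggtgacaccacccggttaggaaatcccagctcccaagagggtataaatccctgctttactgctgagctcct
IL1R2 start 2: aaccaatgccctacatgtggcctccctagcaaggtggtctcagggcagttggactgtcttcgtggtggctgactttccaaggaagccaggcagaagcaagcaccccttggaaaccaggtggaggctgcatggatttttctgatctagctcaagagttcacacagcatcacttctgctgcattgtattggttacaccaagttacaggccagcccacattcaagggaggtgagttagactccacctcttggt

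A kB match stood in 6 of the 16 windows and in 5 of the 8 genes, NFKBIA, TNFAIP3, BIRC3, NFKB1 and NFKB2, against 5.21% of 35116 promoter windows of the same length. In NFKBIA the match ran from 81 to 72 bases upstream of the start, and in TNFAIP3 the matches lay at 67 to 58 and 55 to 46 bases. The windows of RELA, IL1R1 and IL1R2 had 0. The full glucocorticoid receptor motif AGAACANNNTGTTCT was in 0 of the 16 windows and in 0.00285% of all, and its shorter core AGAACA in 1, at the second start of IL1R1, against 12.4% of all. The full estrogen receptor motif GGTCANNNTGACC was in 0 of the 16 windows and in 0.0399% of all. Its shorter core GGTCA, found in 32.6% of all windows, occurred in NFKBIA and in BIRC3 and overlapped no kB match. These are letter matches in a short window and say nothing about binding.

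The libraries held between 17846211 and 22487333 counts. Levels are CPM, counts scaled to the TMM-adjusted library size, group values are means ± SD (n = 2), and log2 fold changes carry the standard error of the fit. A gene counts as called where edgeR's quasi-likelihood test, adjusted by Benjamini-Hochberg over all 14201 genes, gave a p under 0.05. TSC22D3, a classical glucocorticoid target that also binds NF-kB, rose from 14.3 ± 1.76 CPM in DMSO to 134 ± 21.3 in Dex. PGR, a classical estrogen target, rose from 3.31 ± 1.11 CPM to 36.4 ± 6.54 in E2, but was 8.91 CPM in Dex replicate 1 and 2.47 in Dex replicate 2, so that the former stands apart. All 8 epithelial markers were tested, with a summed level of 3372 to 4011 CPM in DMSO, 4340 to 4851 in Dex, 3456 to 3611 in E2 and 3820 to 4113 in Dex_E2. Leukocyte markers, which could carry NF-kB transcripts of their own, summed to 1.44 to 3.18 CPM over all libraries with 2 of 10 tested. CD3E and MS4A1 were at 0 counts. HLA-DRA was at 0 too, but lies in a region, described below, where 0 cannot be read as absence. Endothelial markers summed to 7.83 to 11.4 CPM with 3 of 6 tested, and KDR among them was called higher in Dex. Fibroblast markers summed to 126 to 187 CPM with 3 of 6 tested, nearly all of it COL1A1. The part of these shifts in the results was not tested.

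NFKBIA rose with dexamethasone both alone and on top of estradiol. It was at 48.3 and 51.6 CPM in the DMSO libraries, 106 and 114 in Dex, 39.5 and 43.5 in E2, and 94.2 and 88.0 in Dex_E2. Every library with dexamethasone was above every library without it. The log2 fold change of Dex against DMSO was 1.14 ± 0.10, a 2.20-fold rise (adjusted p = 0.000207, edgeR quasi-likelihood test). On estradiol, Dex_E2 against E2, it was 1.13 ± 0.10 (adjusted p = 0.00042). The interaction, which is the difference between those 2 log2 fold changes, was -0.01 ± 0.14 with a 95% interval of -0.31 to 0.30 (adjusted p = 0.9995).

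Of the 9 genes, 1 was called in Dex against DMSO, where 0.965% of all tested genes were called, and 1 in Dex_E2 against E2, where 0.275% were. NFKBIA was the called gene in both. Averaged over both backgrounds the dexamethasone effect on NFKBIA was 1.14 ± 0.07 (adjusted p = 8.84e-06), again as the 1 gene called of 9 where 1.07% of all tested genes were. Dex_E2 against DMSO gave 0.87 ± 0.10 (adjusted p = 0.000837), 1 of 9 beside 2.19% of all. The median log2 fold change of the 9 genes in Dex against DMSO was 0.036, beside 0.0041 over all tested genes. Dex against DMSO and Dex_E2 against E2 share no library, but they share the spread estimated in the fit. The average effect and Dex_E2 against DMSO reuse the same libraries, so they add no independent support. Without Dex replicate 1, the change in Dex against DMSO was 1.19 ± 0.12 (adjusted p = 0.00141), with the lone Dex library assumed to vary like those of the other groups.

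**Figure D1:**
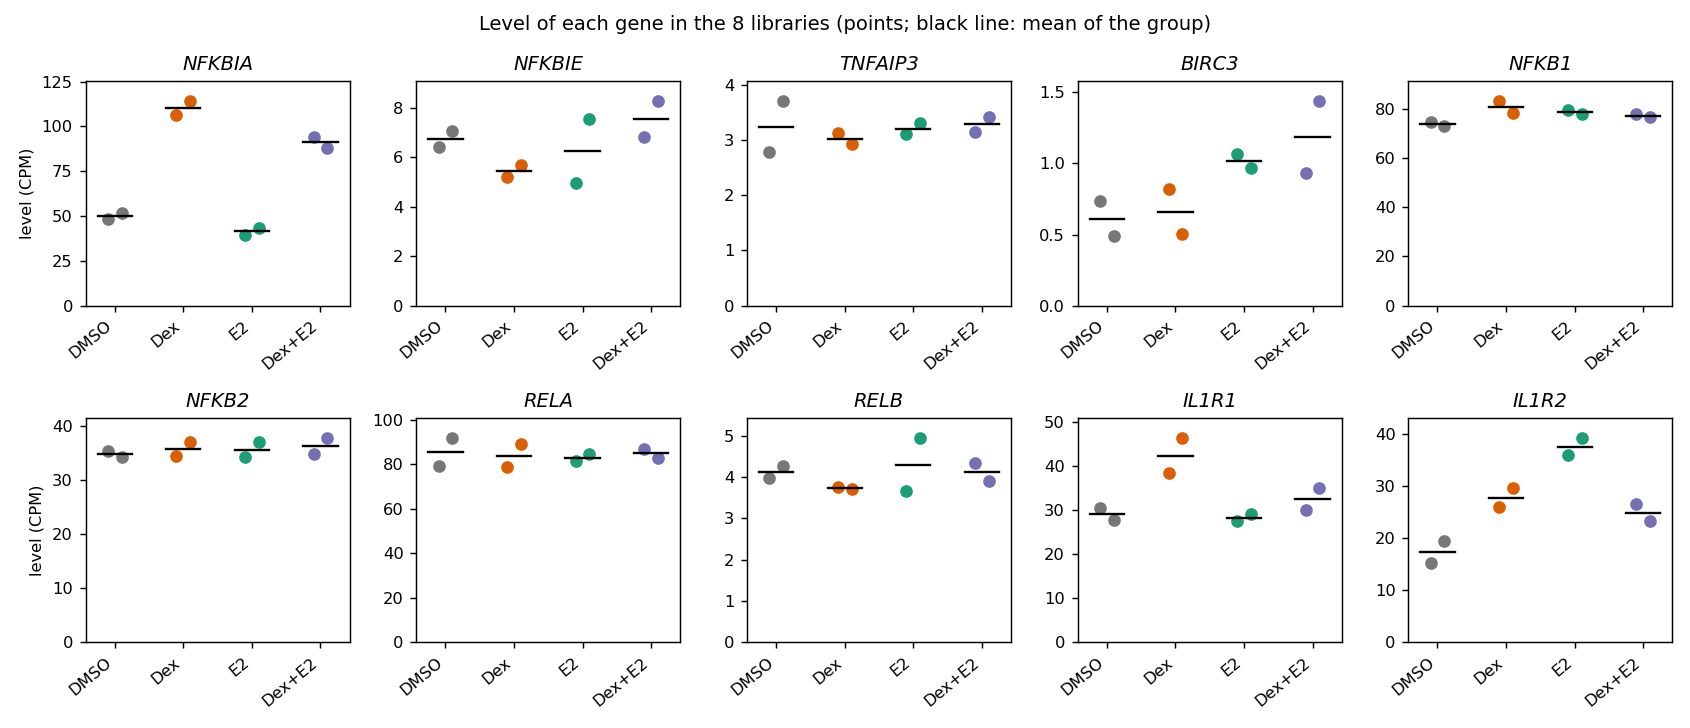
Level of each of the 10 genes in each of the 8 libraries, in CPM, by group. Points are single libraries and black lines the group mean, on axes from 0 that differ between genes. NFKBIA was at 106 and 114 CPM in Dex beside 48.3 and 51.6 in DMSO, IL1R2 was highest in E2, and RELA lay between 78.7 and 91.7 CPM throughout.

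NFKBIA was slightly lower with estradiol. The E2 libraries were below both DMSO libraries, and the Dex_E2 libraries below both Dex libraries. The log2 fold change was -0.27 ± 0.10 in E2 against DMSO (adjusted p = 0.301) and -0.27 ± 0.10 in Dex_E2 against Dex (adjusted p = 0.185), and neither passed the test. Averaged over both backgrounds it was -0.27 ± 0.07 (adjusted p = 0.0464), 1 gene called of 9 where 5.8% of all tested genes were. This call was lost when any of the 8 libraries was left out, with adjusted p between 0.0532 and 0.227. In E2 against DMSO 0 of the 9 genes were called where 1.8% of all tested genes were, with 1 of 9 at an unadjusted p under 0.05 where 11.4% of all were. In Dex_E2 against Dex 0 of 9 were called where 2.67% were, with 3 at an unadjusted p under 0.05 where 16.7% of all were. For the interaction 0 of 9 were called where 0.0211% were, with 0 at an unadjusted p under 0.05 where 5.16% of all were.

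The other brakes and BIRC3 did not pass the test in any comparison. TNFAIP3, the enzyme A20 that trims ubiquitin chains from signalling complexes, was at 2.78 and 3.70 CPM in DMSO, 3.13 and 2.92 in Dex, 3.10 and 3.31 in E2, and 3.15 and 3.41 in Dex_E2. The groups overlapped, and the dexamethasone change was -0.10 ± 0.21 with a 95% interval of -0.57 to 0.37. This interval lies below the 1.14 measured for NFKBIA, although the difference between both genes was not tested. At 52 to 76 counts per library, changes of TNFAIP3 within that interval were not excluded.

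NFKBIE, which encodes IkB-epsilon, was at 6.40 and 7.05 CPM in DMSO, 5.20 and 5.67 in Dex, 4.96 and 7.55 in E2, and 6.83 and 8.26 in Dex_E2. Both Dex libraries lay below both DMSO libraries, and the change was -0.31 ± 0.21 (adjusted p = 0.684, edgeR). Dex_E2 exceeded Dex by 0.47 ± 0.21 (adjusted p = 0.281, edgeR).

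BIRC3, the ubiquitin ligase cIAP2, was close to the limit of detection, at 9 to 32 counts per library. It was at 0.73 and 0.49 CPM in DMSO, 0.82 and 0.51 in Dex, 1.07 and 0.97 in E2, and 0.93 and 1.44 in Dex_E2. All 4 libraries with estradiol were above all 4 without it. The average estradiol effect was 0.78 ± 0.28 (adjusted p = 0.150, edgeR), and did not pass the test.

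Of the 4 subunits, RELA, NFKB1 and NFKB2 stayed within a narrow range, and RELB, at 65 to 112 counts per library, varied more. RELA, the main activating subunit, lay between 78.7 and 91.7 CPM over the 8 libraries, NFKB1, the precursor of p50, between 73.1 and 83.0, and NFKB2, the precursor of p52, between 34.2 and 37.8. RELB, the partner of p52, lay between 3.66 and 4.95 CPM. Over the 8 comparisons and with TNFAIP3 included, log2 fold changes ran from -0.15 to 0.15, and the lowest adjusted p was 0.693. The 95% intervals for RELA reached from -0.28 to 0.39, those for NFKB1 from -0.43 to 0.32 and those for RELB from -0.60 to 0.70. Changes within these bounds were not excluded, and a larger change need not have been called.

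**Figure D2:**
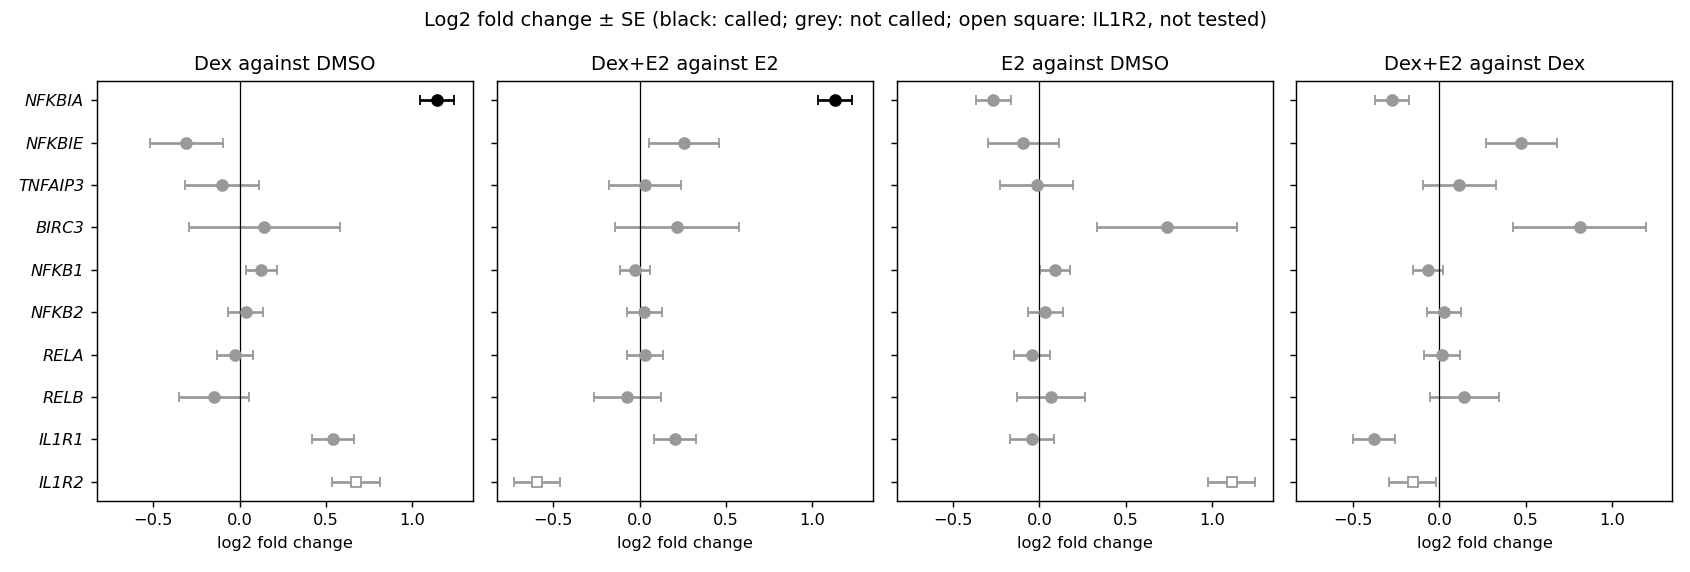
Log2 fold change of each of the 10 genes for each hormone alone and on top of the other, in 4 panels, with ± the standard error as whiskers. Black points were called, grey points were not, and the open square is IL1R2, which has no test. NFKBIA stands at 1.14 in Dex against DMSO and 1.13 in Dex_E2 against E2, while RELA, NFKB1, NFKB2, RELB and TNFAIP3 stay between -0.15 and 0.15.

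Compared per kilobase of exon (union of exons in GENCODE v29, another annotation than that of the counts), NFKBIA was at 26.3 ± 1.23 CPM per kb in DMSO and RELA at 25.3 ± 2.58, which did not differ beyond their spread. NFKB1 followed at 13.4 ± 0.21, NFKB2 at 9.45 ± 0.24 and IL1R2 at 9.34 ± 1.63, the last pair again within their spread. IL1R1 was at 4.60 ± 0.31 CPM per kb, NFKBIE at 2.61 ± 0.18, RELB at 1.80 ± 0.09, TNFAIP3 at 0.683 ± 0.14 and BIRC3 at 0.0883 ± 0.03. In Dex NFKBIA reached 58.0 ± 2.81 CPM per kb beside 24.8 ± 2.17 for RELA, the subunit its product holds back.

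IL1R1, the signalling receptor for interleukin-1, had its highest levels in Dex. It was at 30.4 and 27.7 CPM in DMSO, 38.4 and 46.2 in Dex, 27.4 and 29.0 in E2, and 30.0 and 35.0 in Dex_E2. Both Dex libraries were above every other library. The log2 fold change of Dex against DMSO was 0.54 ± 0.12 with an unadjusted p of 0.00114 and an adjusted p of 0.0908, and did not pass the test (edgeR). It passed in DESeq2 (adjusted p = 0.0356) and in edgeR without the expression filter (adjusted p = 0.0217). It did not pass in limma-voom (adjusted p = 0.111), with both groups fitted alone (adjusted p = 0.280) or with any library left out, and without Dex replicate 2 it was 0.40 ± 0.14 (adjusted p = 0.504). On estradiol the change was 0.20 ± 0.12 (adjusted p = 0.931, edgeR). The interaction was -0.34 ± 0.17 (adjusted p = 0.958, edgeR), so a difference between the backgrounds was not shown.

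IL1R2, the decoy receptor, was picked for its pattern over the groups. It was at 15.2 and 19.5 CPM in DMSO, 25.9 and 29.6 in Dex, 35.9 and 39.2 in E2, and 26.5 and 23.3 in Dex_E2. The E2 libraries were above and the DMSO libraries below all others, and Dex and Dex_E2 overlapped. The log2 fold change was 0.67 ± 0.14 for Dex and 1.11 ± 0.14 for E2 against DMSO. Dex_E2 was 0.52 ± 0.14 above DMSO and -0.59 ± 0.13 against E2. Leaving out 1 DMSO library moved the Dex value to between 0.51 and 0.87 and the E2 value to between 0.95 and 1.31. Per kilobase of exon, the decoy was at 20.2 ± 1.25 CPM per kb in E2 beside 4.46 ± 0.18 for IL1R1, and at 14.9 ± 1.40 in Dex beside 6.70 ± 0.88. These values rest on exon unions of 1858 bases for IL1R2 and 6318 for IL1R1. Without that scaling IL1R1 was the higher in DMSO, Dex and Dex_E2, at 42.3 ± 5.56 CPM in Dex beside 27.7 ± 2.60 for IL1R2. Only in E2 was it the lower, at 28.2 ± 1.16 CPM beside 37.6 ± 2.32.

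IL1R2 and IL1R1 are neighbours in a cluster of interleukin-1 family receptor genes on chromosome 2. In RefSeq the order of coding genes is RFX8, MAP4K4, IL1R2, IL1R1, IL1RL2, IL1RL1, IL18R1, IL18RAP, SLC9A4 and SLC9A2, and these neighbours were looked at after values had been seen. IL18R1, the ligand-binding interleukin-18 receptor, was at 3.57 and 2.92 CPM in DMSO, 8.62 and 6.12 in Dex, 5.63 and 4.68 in E2, and 8.83 and 8.62 in Dex_E2. All 4 libraries with dexamethasone were above all 4 without it. It rose in Dex by 1.19 ± 0.21 (adjusted p = 0.0242, edgeR) and in Dex_E2 against DMSO by 1.43 ± 0.21 (adjusted p = 0.00331). In Dex_E2 against E2 it was 0.76 ± 0.20 and did not pass the test (adjusted p = 0.282). The first call was lost without DMSO replicate 2, Dex replicate 1, E2 replicate 1 or E2 replicate 2 and when the compared groups were fitted alone, with adjusted p of up to 0.139. Its co-receptor IL18RAP and the receptor IL1RL1 reached at most 2 counts in a library, and IL1RL2 and RFX8 had 0.

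At the edges of the cluster, SLC9A2, a sodium-proton exchanger, was at 17.4 ± 1.69 CPM in DMSO, 20.1 ± 1.56 in Dex, 24.6 ± 0.53 in E2 and 32.1 ± 0.36 in Dex_E2. It rose in Dex_E2 against DMSO by 0.88 ± 0.11 (adjusted p = 0.00145, edgeR) and in the average estradiol effect by 0.58 ± 0.08 (adjusted p = 0.00167). MAP4K4, a kinase gene on the side of IL1R2, lay between 172 and 204 CPM and was not called in any comparison.

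**Figure D3:**
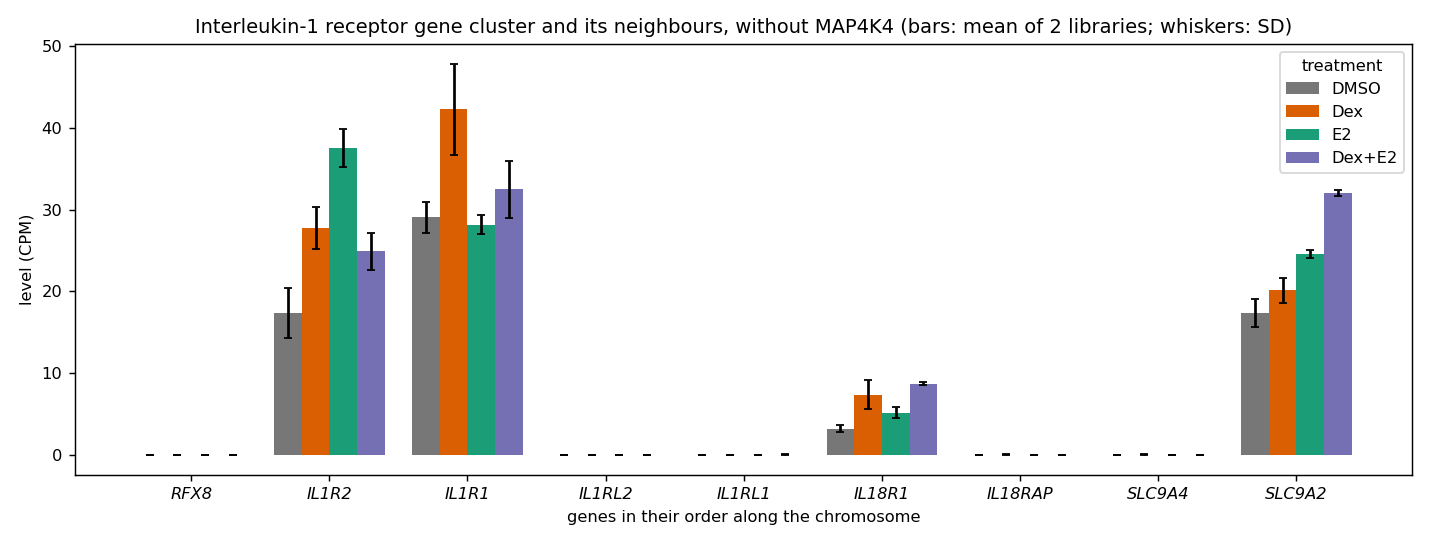
Mean level of each group, in CPM, with the SD of 2 libraries as whiskers, of the genes of the interleukin-1 receptor cluster and its neighbours other than MAP4K4, in their order on chromosome 2. IL1R2 peaks in E2, IL1R1 in Dex, and IL18R1 is higher in all 4 libraries with dexamethasone, while IL1RL2 is at 0.

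The rest of the pathway was read from 8 lists, of which 114 symbols were in the table and 75 were tested. In Dex against DMSO 2 of the 75 (2.67%) rose and 0 fell, IL18R1 and TSC22D3, where 0.965% of all tested genes were called. TSC22D3 was also the check of the dexamethasone treatment, and the lists were chosen with earlier results known. In E2 against DMSO 0 were called where 1.8% of all were, with 13 (17.3%) at an unadjusted p under 0.05 where 11.4% of all were. The average estradiol effect, which had the highest share of calls over all tested genes (5.8%), had 6 of the 75 (8.0%), with TOLLIP and CHUK higher and PELI2, TNFAIP2, BCL2L1 and TSC22D3 lower. The median log2 fold change of the 75 was 0.0019 in Dex against DMSO, beside 0.0041 over all tested genes. In the average estradiol effect it was 0.036, beside -0.0035.

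Ligands were almost silent. Of 10 interleukin-1 family ligands and antagonists 3 were tested and 0 called in any comparison, where 0.0211% to 5.8% of all tested genes were. IL1A was at 4 counts or fewer and IL1B at 3 or fewer in every library. The highest of the tested ones was IL1RN, the receptor antagonist, at 1.15 ± 0.44 CPM in DMSO and 0.368 ± 0.04 in E2. Among the other receptors of the family IL1RAP, the shared partner chain, was at 20.8 ± 1.84 CPM in DMSO, 17.6 ± 0.08 in Dex, 20.9 ± 2.20 in E2 and 25.8 ± 1.79 in Dex_E2. It was higher in Dex_E2 than in Dex by 0.56 ± 0.12 (adjusted p = 0.0388, edgeR), a call lost without any of the 6 libraries of Dex, E2 and Dex_E2, with adjusted p of up to 0.322.

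Of the 9 tested adaptors and kinases next to the receptor, 2 were called, both in the average estradiol effect, where 5.8% of all tested genes were. TOLLIP, an adaptor that dampens the receptor kinases, was at 76.8 ± 6.09 CPM in DMSO and 93.8 ± 7.27 in E2, and rose by 0.32 ± 0.07 (adjusted p = 0.0254, edgeR). PELI2, a ubiquitin ligase of the Pellino family, was at 2.56 ± 0.43 CPM in DMSO, 5.39 ± 0.07 in Dex, 1.39 ± 0.97 in E2 and 2.03 ± 0.11 in Dex_E2, and fell by 1.17 ± 0.25 (adjusted p = 0.0211). The TOLLIP call was lost without DMSO replicate 1, Dex replicate 2, E2 replicate 2 or either Dex_E2 library. The PELI2 call was lost without DMSO replicate 2, Dex replicate 2 or either Dex_E2 library.

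On the side of the TNF receptors 12 of 18 genes were tested and 1 was called, in Dex_E2 against DMSO, where 2.19% of all tested genes were. TRAF5, an adaptor of TNF family receptors, rose from 6.39 ± 1.06 CPM in DMSO to 12.0 ± 0.37 in Dex_E2 (log2 fold change 0.91 ± 0.20, adjusted p = 0.0389, edgeR), a call lost without DMSO replicate 2 or any E2 or Dex_E2 library. Of the 13 IkB kinases and upstream kinases, all tested, CHUK was called, in the average estradiol effect, where 5.8% of all tested genes were. It encodes the catalytic subunit IKK-alpha, stood at 69.3 ± 5.42 CPM in DMSO and 84.0 ± 7.76 in E2, and rose by 0.33 ± 0.08 in the average estradiol effect (adjusted p = 0.0304). That call was lost without DMSO replicate 2, Dex replicate 2, E2 replicate 1 or either Dex_E2 library. The CHUK change stayed between 0.25 and 0.37 under every alternative. Of the 8 other NF-kB and IkB proteins, such as REL and NKIRAS2, 0 were called by edgeR in any comparison. The share of all tested genes called ran from 0.0211% to 5.8% over the comparisons. At most 1 of the 8 was at an unadjusted p under 0.05 in each.

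Among 14 tested negative regulators besides those above, TSC22D3 was the called gene, as 1 of 14 in Dex against DMSO, where 0.965% of all tested genes were. It rose by 3.23 ± 0.14 in Dex against DMSO (adjusted p = 7.2e-07, edgeR) and was lower in Dex_E2 than in Dex by a log2 fold change of -1.01 ± 0.13 (adjusted p = 0.00338). TAX1BP1 and RNF11, which work with TNFAIP3, were at 144 ± 10.7 and 108 ± 1.99 CPM in DMSO and were not called.

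Of 33 inflammatory NF-kB targets, 13 were tested. Among the 13, 0 were called in Dex against DMSO, where 0.965% of all tested genes were, and 0 in Dex_E2 against E2, where 0.275% were. An unadjusted p under 0.05 was reached by 3 of the 13 in each, where 9.84% and 6.37% of all were. In Dex_E2 against DMSO 1 was called where 2.19% of all tested genes were. In Dex_E2 against Dex 2 were called where 2.67% of all were, and in the average estradiol effect 2 where 5.8% were. TNFAIP2, a TNF-induced gene, fell from 31.9 ± 3.35 CPM in DMSO to 17.7 ± 0.81 in Dex_E2, by 0.84 ± 0.13 on the log2 scale (adjusted p = 0.00452, edgeR), a call lost without Dex_E2 replicate 1 (adjusted p = 0.0643). BCL2L1, an anti-apoptotic gene, was at 88.8 ± 9.84 CPM in DMSO, 125 ± 23.7 in Dex, 70.8 ± 5.18 in E2 and 77.6 ± 2.96 in Dex_E2. It fell by 0.51 ± 0.10 in the average estradiol effect (adjusted p = 0.0102, edgeR), a call lost without E2 replicate 1. TNFAIP2 fell by 0.42 ± 0.09 in the average estradiol effect (adjusted p = 0.0213, edgeR). That call was lost without DMSO replicate 2, Dex replicate 1, E2 replicate 1 or either Dex_E2 library. Dex_E2 was also below Dex, by a log2 fold change of -0.56 ± 0.13 for TNFAIP2 (adjusted p = 0.0497, edgeR) and -0.69 ± 0.13 for BCL2L1 (adjusted p = 0.0241). The former call was lost without any library of Dex, E2 or Dex_E2, with RLE size factors and in limma-voom, and the latter without Dex replicate 2, E2 replicate 1 or either Dex_E2 library. IL6, CCL2 and CXCL2, singled out after their values were seen, had 0 counts in all 8 libraries, which allows up to 0.132 to 0.169 CPM per library (3 counts, counting error only).

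TNF, LTA, LTB and IER3 were also listed at 0, but their rows cannot be read as absence. They lie in the major histocompatibility region of chromosome 6, where 88 of 118 coding genes in the table (74.6%) had 0 counts in all libraries, beside 14.0% of all other coding genes. BAG6, DDX39B and FLOT1, which are expressed in nearly all cells, were at 0 there too. NFKBIL1, counted above with the other NF-kB and IkB proteins, also lies there, at 4 to 12 counts per library. The region was looked at after the values had been seen.

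The genes whose levels followed NFKBIA most closely were high in both groups with dexamethasone. By Pearson correlation of log2 CPM over the 8 libraries, among 11973 other genes, they were TSC22D3 (r = 0.993), the repressor BCL6 (r = 0.993), NXPH3 (r = 0.990), JADE2 (r = 0.985) and the lipid transporter MFSD2A (r = 0.984). BCL6 was at 5.28 ± 0.25 CPM in DMSO, 18.3 ± 3.37 in Dex, 3.78 ± 0.09 in E2 and 12.2 ± 0.50 in Dex_E2. For IL1R2 the closest were ZNF674-AS1 (r = 0.963), the metal transporter SLC39A8 (r = 0.960), TCIRG1 (r = 0.935), DDX56 (r = 0.933) and ULK3 (r = 0.923). Their changes were smaller than that of IL1R2: SLC39A8 was at 280.5 ± 21.6 CPM in DMSO, 330.1 ± 9.95 in Dex, 345 ± 5.23 in E2 and 310.3 ± 17.1 in Dex_E2. These correlations describe 8 libraries that share their groups, and the genes were taken for being the highest of many. Between members, IL1R1 and NFKBIA had the highest r of all pairs, 0.823, and IL1R2 and NFKBIA had r = -0.0579.

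**Figure D4:**
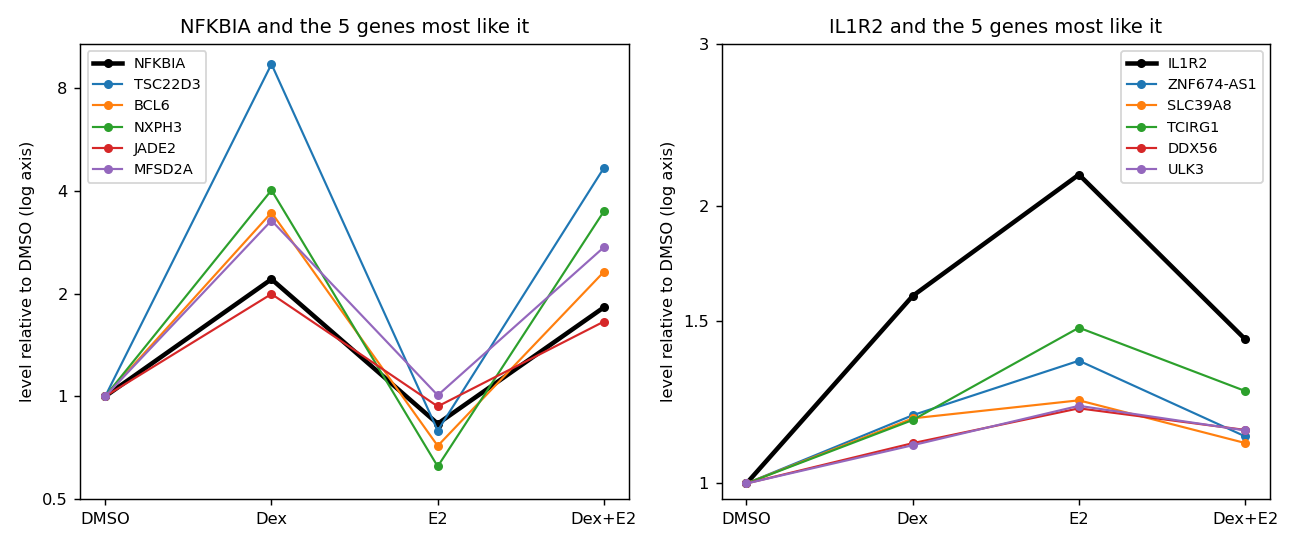
Group mean level of NFKBIA and of IL1R2, each with the 5 genes most correlated with it, relative to the DMSO mean of the same gene on a log axis. The genes beside NFKBIA are high in Dex and Dex_E2, and those beside IL1R2 are highest in E2 and lowest in DMSO.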

How the data were processed

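RNA was sequenced from 8 libraries of Ishikawa cells, prepared with a stranded mRNA kit per the labels' protocols. The authors deposited whole-number counts per gene, made with HISAT2 2.0.4, Subread and featureCounts 1.5.1 on hg19, with DESeq2 1.14.1 also named, per the submitters' processing notes. The strand setting was not given in the sources used here, nor was the annotation, so reads of overlapping or antisense genes could be mixed. The deposited normalised table was not used.

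Columns were assigned to groups by name. Both Dex_E2 columns carry the number 1, so the one not matching the label of replicate 1 is a library without a number. Depth was 17846211 to 22487333 counts per library.

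The count test was edgeR 4.0.16 with limma 3.58.1 under R 4.3.3: filterByExpr by group, which left 14201 of 26364 genes, TMM scaling, and a quasi-likelihood fit of all 8 libraries in 4 groups, with 4 residual degrees of freedom. The 8 contrasts were every treatment against DMSO, Dex_E2 against Dex and against E2, the average effect of each hormone and the interaction. Benjamini-Hochberg adjustment was made over all tested genes within a contrast. The fit was tested on simulated data. Alternatives were other scalings and filters, DESeq2 1.42.0, limma-voom, the compared groups alone, each library left out, and a replicate block. The genes, lists and tests were chosen with earlier results of these data known. Named genes are the 10 genes, every list gene called in a contrast, otherwise up to 2 of the highest per list, TSC22D3 and PGR, and the 5 genes most correlated with NFKBIA and with IL1R2.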

Additional observations from a re-analysis of the deposited data

How the results depend on the processing

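The NFKBIA calls in Dex against DMSO, Dex_E2 against E2, Dex_E2 against DMSO and the average dexamethasone effect held under every alternative run, with adjusted p of up to 0.00673, 0.0239, 0.0114 and 0.000434. In Dex against DMSO 2 of the 9 genes were called without the filter, in DESeq2 and with the replicate block, in place of 1, as IL1R1 was added; in the average dexamethasone effect 2 were called without the filter and in DESeq2. In the average estradiol effect 0 were called with the replicate block and 0 when any library was left out. The NFKBIA interaction changed sign to 0.018 without the filter and to 0.099 with the replicate block, and ran from -0.073 to 0.075 when libraries were left out, always within its error. The IL1R2 average dexamethasone effect ran from -0.043 to 0.14 and the IL1R1 change in E2 against DMSO from -0.11 to 0.025 when libraries were left out. The cause was not tested. The labels do not say that a replicate number marks a shared culture, and deviations of same-numbered libraries correlated at 0.243, 0.153 and 0.0493 over the group pairs, so pairing was not established; the block used the 7 numbered libraries. With the replicate block, 5 further calls were lost, those of TRAF5, IL1RAP and CHUK and those of TNFAIP2 and BCL2L1 in Dex_E2 against Dex, with adjusted p of 0.0567 to 0.230. Where a group was left with 1 library, that library was assumed to vary like the other groups. The number of calls over all tested genes changed in these fits too, mostly to fewer. A lost call therefore does not by itself single out the library left out. Without the filter, with 20028 genes tested, 253 genes in place of 137 were called in Dex against DMSO, 442 in place of 256 in E2 against DMSO, 132 in place of 39 in Dex_E2 against E2, 658 in place of 379 in Dex_E2 against Dex, 295 in place of 152 in the average dexamethasone effect and 32 in place of 3 for the interaction. DESeq2 called 68 genes in place of 39 in Dex_E2 against E2 and 13 in place of 3 for the interaction. With the compared groups alone it was 63 in place of 137 in Dex against DMSO and 151 in place of 39 in Dex_E2 against E2. The shares of all tested genes given above are those of the fit of all 8 libraries, and they change with these totals and with libraries left out. The replicate block gave 241 in place of 137 in Dex against DMSO, 442 in place of 256 in E2 against DMSO, 176 in place of 379 in Dex_E2 against Dex, 464 in place of 152 in the average dexamethasone effect and 5 in place of 3 for the interaction. Depth limits BIRC3, at 9 to 32 counts, the most.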
